A study of Mus musculus with 12 samples.

Results

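The genes described here make cholesterol, take it up, move it and control its synthesis. A list of 34 such genes was read in C790 cells, a mouse melanoma line with mutant Nras, on Affymetrix mouse genome arrays. A probe set, the group of array probes that reads a transcript, was used only where it was annotated to a single gene, and where several remained for a gene the brightest one over the 12 arrays was taken. This gave values for 31 of the 34 listed genes, among 18193 genes measured in all, while Acat2, Soat1 and Nr1h2 were not analysed here.

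All cells carried 2 lentiviral vectors, one with Oct4, Sox2, Klf4 and a blasticidin resistance gene under doxycycline control, the other with the M2 transactivator and mCherry. Control (−dox) cells were grown without doxycycline. Partially reprogrammed (+dox) cells received doxycycline and were selected with blasticidin. Both kinds were taken at day 20 after exposure for 72 h to DMSO, the solvent, or to trametinib, an inhibitor of the kinase MEK upstream of ERK. There were 3 arrays in each of the 4 groups, −dox DMSO, −dox trametinib, +dox DMSO and +dox trametinib. The labels do not say whether the 3 arrays of a group came from separate cultures, and the study speaks of independent experiments only in general terms, without tying this to the arrays. The p-values therefore cover only the spread between these samples. Doxycycline, the transgenes and blasticidin selection cannot be told apart in the +dox cells. Because RNA was taken from whole cultures, fewer cells of a kind and less RNA per cell cannot be told apart either.

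Cholesterol is built from acetyl-CoA through mevalonate, isoprenoids, squalene and lanosterol. Its synthesis is governed by SREBP transcription factors, which SCAP escorts from the endoplasmic reticulum to the Golgi for cleavage when sterols are scarce, while INSIG proteins hold SCAP back when sterols are plentiful. INSIG1, STARD4 and the enzymes of the pathway are themselves known SREBP targets, whereas sterol excess is sensed by LXR receptors, which switch on the exporters ABCA1 and ABCG1.

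Values are log2 expression, so that a difference of 1 is a doubling, and group means are given ± SD over n = 3 arrays. A change is a difference of group means on this scale, tested with limma and adjusted by Benjamini-Hochberg over the 18193 genes. A gene is said to rise or fall where the adjusted p was under 0.05. A level of 4.876, under which lay most receptor genes for smell and taste, served as background. All members apart from Abcg1 were above it on all 12 arrays, and Abcg1, an exporter of cholesterol to lipoproteins, lay under it on all 12, between 3.51 and 4.16.

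The labels were checked against genes with a known place in the design. All 8 of 8 measured ERK output genes fell with trametinib in both cell states, several of them to levels under the background. Dusp6, a phosphatase induced by ERK, went from a mean of 12.06 to under the background level in −dox cells, a fall of at least 7.19 on the log2 scale (adjusted p = 1.5e-09 from limma). All 9 of 9 proliferation genes fell in −dox and 8 of 9 in +dox cells, and their mean level was 10.73 to 11.13 and 10.97 to 11.55 on the DMSO arrays, against 8.36 to 9.04 and 8.83 to 10.29 on the trametinib arrays of −dox and +dox cells. The part of these proliferation differences in the sterol results was not tested. Of the 7 melanocytic markers, Tyr, Dct, Tyrp1 and Mlana were under the background level in all 4 groups, while Mitf, Pmel and Sox10 were above it. Between the states under DMSO 0 of the 7 passed (Mitf -0.57, adjusted p = 0.29, Pmel -0.04, adjusted p = 0.91, from limma). The study reported both as lower in +dox cells by real-time PCR. With trametinib Mitf rose in +dox cells by 1.22 (adjusted p = 0.0077), and its −dox change of 0.83 did not pass (0.058). Of the reprogramming factors, Pou5f1, which encodes Oct4, was under the background level on all 3 −dox DMSO arrays. It was higher by at least 0.57 in +dox than in −dox cells under DMSO (adjusted p = 0.016 from limma), and it also rose with trametinib in −dox cells, by at least 0.62 (adjusted p = 0.0032). Sox2 (-1.53, adjusted p = 0.091) and Klf4 (-0.15, adjusted p = 0.8) did not pass between the states under DMSO. Sox2 read 6.48 to 8.07 on the −dox and 5.51 to 6.46 on the +dox DMSO arrays, without overlap. The study reported Sox2 as higher in +dox cells by real-time PCR, the opposite direction. Whether the probe sets of these factors read the transgenes is not known. Of 9 markers of leukocytes, endothelium and epithelium, Cd3e was higher with trametinib in −dox cells by 0.35 (adjusted p = 0.034), and none of the other markers passed for trametinib in either state. Ptprc, Adgre1, Pecam1, Cdh5 and Krt14 were under the background level in all groups. Cd68, Cd3e and Epcam were above it on all 12 arrays, and Krt5 lay close to it. Cd68 ranged from 5.24 to 8.88 and changed by -1.74 with trametinib in +dox cells (adjusted p = 0.061 from limma). Its difference between +dox and −dox cells under DMSO was 1.43 (adjusted p = 0.23).

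Promoters of sterol genes are known for sterol regulatory elements beside NF-Y and Sp1 boxes. Those of 4 members are shown because these genes stand at the entrance of the pathway (Hmgcs1), in isoprenoid synthesis (Idi1), at the closure of the sterol rings (Lss) and in its feedback (Insig1). Capitals mark matches to TCACNCCAC, the core of the sterol regulatory element, to CCAAT, the NF-Y box, and to GGGCGG, the Sp1 box, each on either strand. The stretches lie upstream of the RefSeq transcript start in GRCm38.p6, all on the plus strand, at chr13:119690109-119690337 (Hmgcs1), chr13:8885532-8885601 (Idi1), chr10:76531434-76531552 (Lss) and chr5:28071178-28071296 (Insig1).
Hmgcs1: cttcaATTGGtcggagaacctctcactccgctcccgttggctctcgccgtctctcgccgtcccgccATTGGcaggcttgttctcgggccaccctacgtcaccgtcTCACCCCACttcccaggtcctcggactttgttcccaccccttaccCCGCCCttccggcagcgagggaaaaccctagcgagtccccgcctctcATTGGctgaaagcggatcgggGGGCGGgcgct
Idi1: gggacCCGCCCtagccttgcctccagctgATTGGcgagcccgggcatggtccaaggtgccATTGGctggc
Lss: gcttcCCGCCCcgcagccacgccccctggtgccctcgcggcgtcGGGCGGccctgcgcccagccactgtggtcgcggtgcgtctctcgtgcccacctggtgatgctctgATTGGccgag
Insig1: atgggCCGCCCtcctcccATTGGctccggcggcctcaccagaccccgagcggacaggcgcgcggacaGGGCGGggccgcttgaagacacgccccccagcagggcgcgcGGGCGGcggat

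Windows of 300 bases, 250 before and 50 after the start, were at hand for 23 of the measured members, in 31 windows since some genes have several starts. CCAAT was found in 22 of 31 member windows (71.0%) against 37.4% of 32851 windows of all genes, and GGGCGG in 24 of 31 (77.4%) against 35.7%. The sterol element core in these letters was found in 1 of 31, that of Hmgcs1 with its first base at position -137 from the start, and in 1.24% of all windows. These are letter matches in a short window and say nothing of binding, and degenerate forms of the sterol element were not searched.

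The trametinib comparisons ask how the pathway responds to MEK inhibition in each state, and its members moved in both directions. In −dox cells 10 of 31 members fell and 3 rose, where 10.8% of all genes tested fell and 11.6% rose. The median change of the members was -0.34, against 0.06 for all genes, and 23 of 31 were below 0 (40.5% of all genes). With the mean of probe sets 6 fell and 5 rose, where 9.61% of all genes fell and 11.54% rose. Without −dox DMSO replicate 3 or without −dox trametinib replicate 1, 4 members fell and 3 rose. In these fits 7.94% and 9.16% of all genes fell and 9.21% and 9.80% rose, in that order. The median became -0.61 without −dox DMSO replicate 1, -0.21 without replicate 2 or 3 of that group and -0.15 without −dox trametinib replicate 1. In +dox cells 5 members fell and 5 rose, where 12.5% of all genes fell and 13.8% rose, and the median of the members was 0.00 against 0.02. With each array centred on its own median, the counts were 9 lower and 5 higher in −dox cells. In that fit 8.49% of all genes fell and 23.05% rose in −dox cells. The −dox median of the members was then -0.20 and that of all genes 0.19. The centred counts in +dox cells were 8 lower and 5 higher, where 14.29% of all genes fell and 11.97% rose. Pmvk, Lss, Srebf2, Stard4 and Acly fell in both cell states, and Ebp and Npc1 rose in both.

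**Figure D1:**
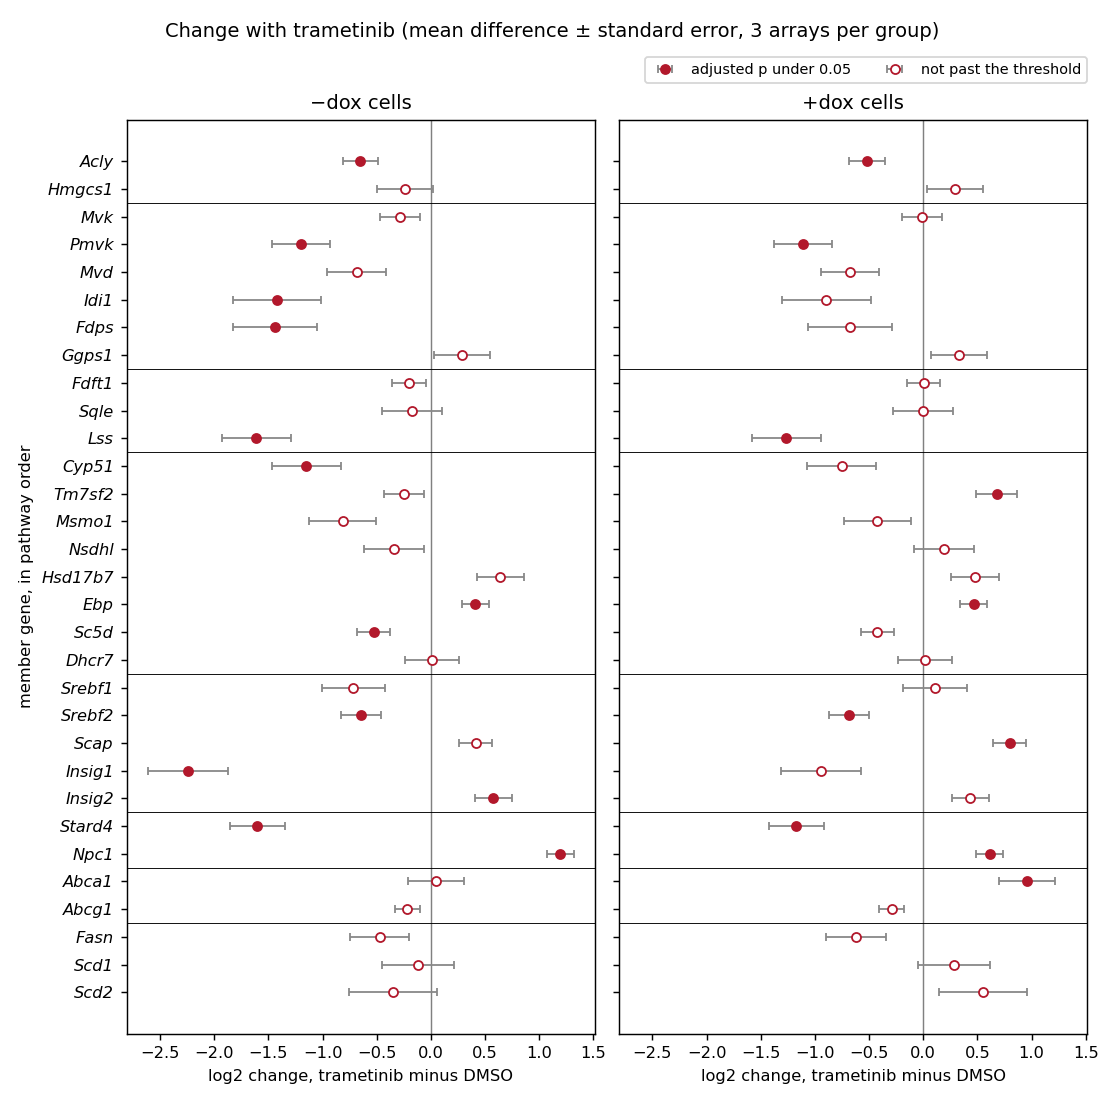
Change of the 31 members with trametinib in −dox cells (left) and +dox cells (right), in pathway order. Points are differences of group means (log2, trametinib minus DMSO, 3 arrays per group), bars are standard errors of the fit and filled points have an adjusted p under 0.05. Insig1 lies farthest to the left in −dox cells at -2.24, and Npc1 farthest to the right at 1.19.

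At the entrance of the pathway, Acly makes cytosolic acetyl-CoA from citrate. Its log2 expression was 12.32, 12.45 and 12.63 on the −dox DMSO arrays and 11.59, 11.85 and 12 on the −dox trametinib arrays. The +dox arrays gave 12.45, 12.23 and 12.38 with DMSO and 11.75, 11.57 and 12.18 with trametinib. All trametinib arrays thus lay below all DMSO arrays of the same state. The expression of Acly fell by 0.65 (adjusted p = 0.014 from limma) in −dox cells and dropped by 0.52 (adjusted p = 0.035) in +dox cells, with a standard error of 0.16. Leaving out −dox DMSO replicate 3 or −dox trametinib replicate 1 ended the −dox call (adjusted p = 0.058 and 0.054), as did the mean of probe sets (a change of -0.31, adjusted p = 0.056). That mean takes in probe sets under the background level, with means of 2.68, 2.65 and 4.08. The other bright probe sets, with means of 10.82 and 11.86, gave -0.71 and -0.58 in −dox and -0.67 and -0.47 in +dox cells. The +dox call was lost with only the compared arrays in the fit (adjusted p = 0.051) and without any one of +dox DMSO replicates 1 and 3 and +dox trametinib replicates 1 and 2 (adjusted p = 0.095 to 0.14). Hmgcs1, which condenses acetoacetyl-CoA and acetyl-CoA to HMG-CoA, changed by -0.24 in −dox cells (adjusted p = 0.57) and 0.29 in +dox cells (adjusted p = 0.49). Its arrays overlapped in both states, with 11.05 to 11.58 under DMSO and 10.56 to 11.66 under trametinib in −dox cells.

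Of the 6 enzymes that take mevalonate to isoprenoids, Pmvk, Idi1 and Fdps fell in −dox cells and Pmvk in +dox cells. Pmvk, the kinase that makes mevalonate diphosphate, stood at 9.10, 9.64 and 9.61 with DMSO and 7.73, 8.76 and 8.26 with trametinib in −dox cells. With doxycycline the values were 9.83, 9.51 and 9.76 against 8.12, 8.84 and 8.82. The groups did not overlap in either state. Pmvk fell by 1.20 (standard error 0.27, 2.30-fold, adjusted p = 0.008) in −dox and by 1.11 (2.15-fold, adjusted p = 0.0096) in +dox cells, and both calls held when any one of the 12 arrays was left out.

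Idi1, which isomerises isopentenyl diphosphate, read 10.02, 10.98 and 10.98 with DMSO and 8.34, 10.14 and 9.24 with trametinib in −dox cells, so that DMSO replicate 1 lay below trametinib replicate 2. It fell by 1.42 there (standard error 0.41, adjusted p = 0.029 from limma). Its +dox values were 11.26, 11 and 11.03 against 9.73, 10.67 and 10.21, without overlap, but the change of -0.89 did not pass (adjusted p = 0.15). Fdps, which joins isoprenoids to farnesyl diphosphate, read 11, 12.10 and 11.96 against 9.55, 10.97 and 10.22 in −dox cells, where it fell by 1.44 (adjusted p = 0.021). Its highest trametinib array was just under its lowest DMSO array. In +dox cells Fdps read 12.06, 11.95 and 11.88 against 10.67, 11.83 and 11.35, a change of -0.68 (adjusted p = 0.25). Neither −dox call held once −dox DMSO replicate 2 or 3, or −dox trametinib replicate 1 or 3, was left out (adjusted p = 0.076 to 0.095 for Idi1 and 0.061 to 0.074 for Fdps), or with only the compared arrays in the fit (0.099 and 0.067). That fit called Idi1 in +dox cells (adjusted p = 0.021).

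The other 3 enzymes of this stretch did not pass the test. Mvd, the decarboxylase that yields isopentenyl diphosphate, changed by -0.69 in −dox cells (adjusted p = 0.096) and by -0.68 in +dox cells (adjusted p = 0.092). With the replicate number as a block, the +dox change of Mvd passed (adjusted p = 0.034). Mvk, the first mevalonate kinase, changed by -0.28 and -0.01, and Ggps1, which makes geranylgeranyl diphosphate for protein prenylation, by 0.28 and 0.33 in −dox and +dox cells. The other probe sets of Ggps1 gave 0.49, 0.50 and 0.72 in −dox cells, where the mean of its probe sets passed (0.50, adjusted p = 0.012), as did the brightest one with array weights (adjusted p = 0.022).

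Between farnesyl diphosphate and lanosterol, Lss fell in both states, whereas Fdft1 and Sqle did not pass. Lss, lanosterol synthase, closes the sterol rings. It stood at 7.65, 8.74 and 8.73 with DMSO and at 6.45, 7.20 and 6.63 with trametinib in −dox cells. On the +dox arrays the levels were 9.24, 8.60 and 9.06 with DMSO and 7.27, 7.83 and 8.0 with trametinib. No array of one treatment reached the range of the other in either state. The fall was 3.06-fold in −dox cells (log2 change -1.61, standard error 0.32, adjusted p = 0.004 from limma) and 2.41-fold in +dox cells (-1.27, adjusted p = 0.012). No single array decided the −dox call, and leaving out +dox trametinib replicate 1 alone ended the +dox call (adjusted p = 0.057). The other probe sets of Lss gave -0.80 and -0.46 in −dox and -0.92 and -0.39 in +dox cells. Fdft1, squalene synthase, changed by -0.20 in −dox cells and 0.00 in +dox cells, and Sqle, the squalene epoxidase, by -0.18 and 0.00 (adjusted p from 0.4 to 1).

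Of the 8 enzymes from lanosterol to cholesterol, Cyp51 and Sc5d fell and Ebp rose in −dox cells, and Tm7sf2 and Ebp rose in +dox cells. Cyp51, the lanosterol demethylase, read 9.11, 9.56 and 9.66 with DMSO and 7.62, 8.96 and 8.30 with trametinib in −dox cells, without overlap. It fell by 1.15 there (standard error 0.32, adjusted p = 0.025 from limma). The +dox values were 9.92, 9.51 and 9.66 against 8.48, 9.45 and 8.90, a change of -0.75 (adjusted p = 0.12). Sc5d, a sterol desaturase, read 9.83, 10.17 and 10.17 against 9.43, 9.73 and 9.42 in −dox cells and fell by 0.53 (adjusted p = 0.026). In +dox cells the values were 10.33, 10.12 and 10.28 against 9.60, 10.09 and 9.77, a change of -0.42 with an adjusted p of 0.059, or 0.043 with the replicate block. The other Sc5d probe sets gave 0.04 and 0.23 in −dox and 0.72 and 0.10 in +dox cells, so the direction of Sc5d depended on the probe set. Neither −dox call held when −dox DMSO replicate 2 or 3 or −dox trametinib replicate 1 or 3 was left out (adjusted p = 0.066 to 0.082 for Cyp51 and 0.079 to 0.092 for Sc5d), when the mean of the probe sets was taken (0.1 and 0.69), or with only the compared arrays in the fit (0.066 and 0.055).

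Ebp, the sterol isomerase, went the other way. It read 10.67, 10.59 and 10.93 against 10.97, 11.20 and 11.25 in −dox cells, and 11.02, 10.95 and 10.75 against 11.25, 11.49 and 11.37 in +dox cells. All trametinib arrays lay above all DMSO arrays of the same state, though the margin was small. Ebp rose by 0.41 (standard error 0.13, adjusted p = 0.037 from limma) and by 0.46 (adjusted p = 0.017). Its −dox call was lost without any one of 5 arrays, namely −dox DMSO replicates 1 and 2, −dox trametinib replicates 2 and 3 and +dox trametinib replicate 3 (adjusted p = 0.051 to 0.13), with only the compared arrays (0.092) and after further quantile normalisation (0.08). Its +dox call was lost when +dox DMSO replicate 3 or +dox trametinib replicate 2 was left out (adjusted p = 0.068 and 0.077).

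Tm7sf2, one of the enzymes that reduce the C14 double bond, read 6.96, 6.68 and 6.80 with DMSO and 7.21, 7.75 and 7.51 with trametinib in +dox cells, without overlap, and rose by 0.68 (standard error 0.19, adjusted p = 0.02 from limma). Without doxycycline it read 6.90, 7.41 and 7.44 against 6.83, 7.29 and 6.88, a change of -0.25 (adjusted p = 0.39). The difference between these responses was 0.93, with an adjusted p of 0.18. Leaving out +dox DMSO replicate 2 or 3 or +dox trametinib replicate 2 or 3 ended the +dox call (adjusted p = 0.054 to 0.08). The remaining members of this stretch did not pass. Msmo1, a sterol methyl oxidase, changed by -0.81 in −dox cells (adjusted p = 0.085) and -0.42 in +dox cells. Hsd17b7, a sterol ketoreductase, changed by 0.64 (adjusted p = 0.057) and 0.48, and its −dox change passed in 5 of 8 alternative fits, among them the mean of probe sets (adjusted p = 0.039) and array weights (0.011). Nsdhl, which removes carbon from C4, changed by -0.34 and 0.19, and Dhcr7, which finishes cholesterol, by 0.01 in both.

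**Figure D2:**
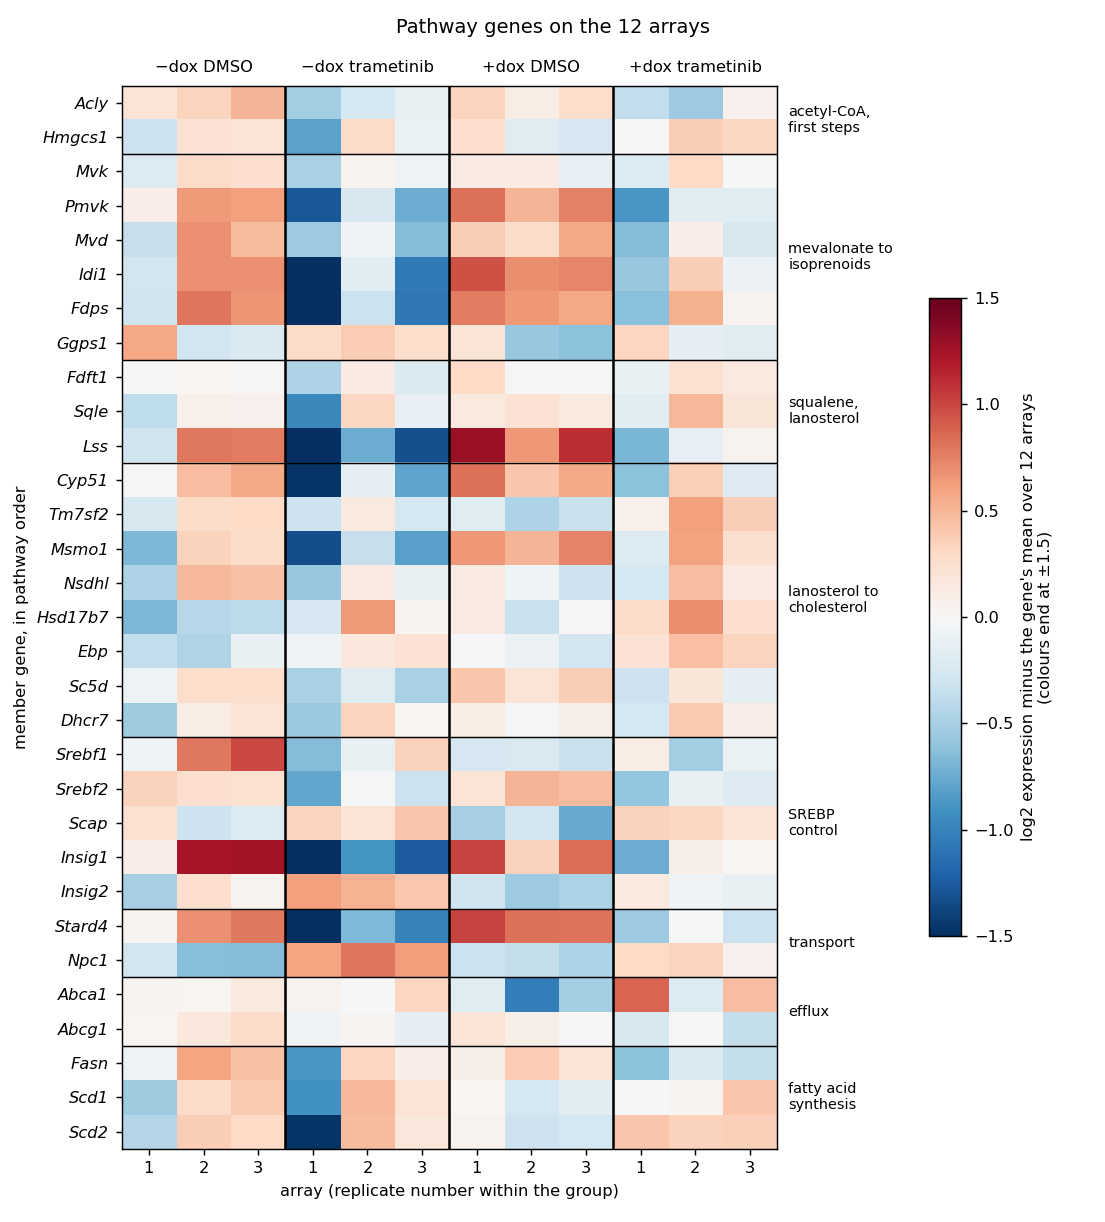
The 31 members (rows, in pathway order) on the 12 arrays (columns, by group and replicate number), as log2 expression minus the mean of the gene over the 12 arrays, with colours ending at ±1.5. Pmvk, Idi1, Fdps, Lss, Cyp51, Insig1 and Stard4 are blue on most trametinib arrays and red on most DMSO arrays, and Npc1 shows the opposite pattern.

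Among the regulators, Srebf2, which encodes the SREBP form best known for sterol genes, read 9.19, 9.10 and 9.08 with DMSO and 8.07, 8.83 and 8.52 with trametinib in −dox cells. The values in +dox cells were 9.05, 9.35 and 9.31 against 8.26, 8.74 and 8.65. Its trametinib arrays lay below its DMSO arrays in both states, and it fell by 0.65 (adjusted p = 0.027 from limma) and by 0.69 (adjusted p = 0.017), both with a standard error of 0.18. With the mean of its probe sets neither call held (adjusted p = 0.059 and 0.12). The −dox call was also lost with only the compared arrays (0.068), with arrays centred on their medians (0.058), and when any one of the −dox DMSO arrays or −dox trametinib replicate 1 or 3 was left out (adjusted p = 0.058 to 0.085), and the +dox call when this was done for +dox DMSO replicate 2 or 3 or +dox trametinib replicate 1 (0.06 to 0.078).

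Srebf1, whose SREBP forms are best known for fatty acid genes, read 10.22, 11.08 and 11.28 with DMSO and 9.63, 10.17 and 10.63 with trametinib in −dox cells. The +dox arrays read 10.03, 10.06 and 9.95 against 10.40, 9.78 and 10.18. The −dox groups overlapped and the +dox arrays of both treatments lay together. Changes were -0.72 (adjusted p = 0.11) and 0.11 (adjusted p = 0.85). Between the states the response differed by 0.82 (adjusted p = 0.48).

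Scap, the escort of SREBP, read 9.79, 9.26 and 9.36 with DMSO and 9.90, 9.77 and 9.98 with trametinib in −dox cells, where DMSO replicate 1 reached into the trametinib range and the change of 0.41 did not pass (adjusted p = 0.079 from limma). With doxycycline it read 9.07, 9.29 and 8.81 against 9.91, 9.88 and 9.77. There the groups were apart and Scap rose by 0.80 (standard error 0.15, 1.74-fold, adjusted p = 0.0027), a call that held without any one array. The responses differed by 0.38 (adjusted p = 0.54).

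Insig1, a sterol-sensing anchor of SCAP, had the largest trametinib change of the 31 members. It read 10.27, 11.40 and 11.41 with DMSO and 8.16, 9.27 and 8.92 with trametinib in −dox cells. From a mean of 11.03 ± 0.66 to one of 8.78 ± 0.57, it fell 4.73-fold (log2 change -2.24, standard error 0.37, adjusted p = 0.0014 from limma). In +dox cells it read 11.18, 10.51 and 11.01 against 9.42, 10.25 and 10.20. The groups did not overlap in either state, and the −dox call held without any one array. The +dox change of -0.94 did not pass (adjusted p = 0.087), though it did with the replicate block (0.039). The response of +dox cells differed from that of −dox cells by 1.30 (standard error 0.52), with an unadjusted p of 0.03 and an adjusted p of 0.36.

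Insig2, the other SCAP anchor, moved against Insig1 in −dox cells. It read 9.11, 9.86 and 9.66 with DMSO and 10.22, 10.13 and 10.01 with trametinib in −dox cells, and 9.31, 9.06 and 9.13 against 9.75, 9.55 and 9.50 in +dox cells. The treatments did not overlap in either state. The rise of Insig2 in −dox cells was 0.58 (standard error 0.17, adjusted p = 0.031 from limma), while the +dox change of 0.43 did not pass (adjusted p = 0.087). This call was lost when −dox DMSO replicate 1 or any one of the −dox trametinib arrays was left out (adjusted p = 0.055 to 0.089), and with only the compared arrays in the fit (0.11). In that last fit the +dox change passed (0.027).

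**Figure D3:**
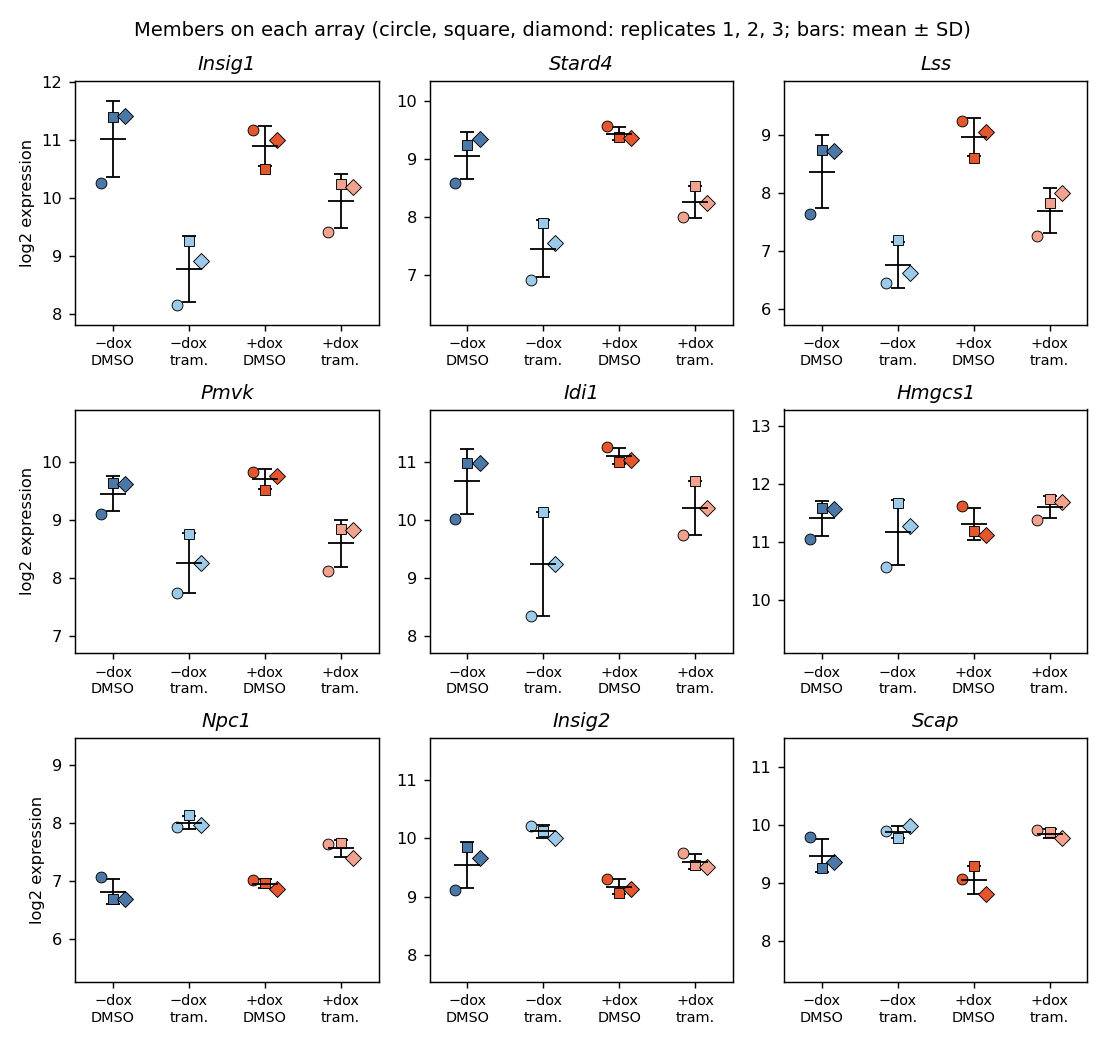
Log2 expression of 9 members on each array by group, with replicates 1, 2 and 3 as circle, square and diamond and the mean ± SD (n = 3) as bars, on axes of equal span that do not start at 0. Insig1, Stard4, Lss, Pmvk and Idi1 are lower on trametinib arrays and Npc1 is higher, while Hmgcs1 overlaps between all groups.

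Both measured members of sterol transport changed in both cell states, in opposite directions. Stard4, a carrier of cholesterol between membranes, read 8.59, 9.24 and 9.34 with DMSO and 6.92, 7.89 and 7.55 with trametinib in −dox cells. On +dox arrays it read 9.56, 9.37 and 9.36 against 8.0, 8.54 and 8.23. No trametinib array reached the DMSO range, and the group means were 9.06 ± 0.41 and 7.45 ± 0.49 in −dox cells and 9.43 ± 0.11 and 8.26 ± 0.27 in +dox cells. Stard4 fell by 1.60 (standard error 0.25, 3.04-fold, adjusted p = 0.0011 from limma) and by 1.17 (2.26-fold, adjusted p = 0.0052), and its other probe sets gave -1.39 and -1.45 in −dox and -1.64 and -1.38 in +dox cells.

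Npc1, which lets cholesterol out of the lysosome, read 7.06, 6.69 and 6.68 with DMSO and 7.92, 8.13 and 7.96 with trametinib in −dox cells. In +dox cells it read 7.01, 6.97 and 6.86 against 7.63, 7.66 and 7.39. Its trametinib arrays were the higher ones without overlap in both states, with means of 6.81 ± 0.22 and 8.0 ± 0.11 in −dox cells and 6.95 ± 0.08 and 7.56 ± 0.15 in +dox cells. Npc1 rose by 1.19 (standard error 0.13, 2.29-fold, adjusted p = 0.00012 from limma) and by 0.61 (1.53-fold, adjusted p = 0.0037). Its response was smaller in +dox cells by 0.58, a difference with an unadjusted p of 0.0072 and an adjusted p of 0.21. The calls of Stard4 and Npc1 held in both states without any one of the 12 arrays.

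Abca1, the exporter that loads cholesterol onto apolipoproteins, read 11.53, 10.68 and 11.20 with DMSO and 12.59, 11.51 and 12.18 with trametinib in +dox cells. Trametinib replicate 2 lay just below DMSO replicate 1, so the groups overlapped. Abca1 rose by 0.96 there (standard error 0.26, adjusted p = 0.017 from limma), but not without +dox DMSO replicate 2 or +dox trametinib replicate 1 or 3 (adjusted p = 0.055 to 0.076) or with only the compared arrays (0.053). Its −dox values were 11.76, 11.74 and 11.86 against 11.77, 11.71 and 12.03, a change of 0.05 (adjusted p = 0.92). Its 2 dimmer probe sets gave 0.58 and 0.73 in −dox and 1.09 and 1.17 in +dox cells. The responses of the 2 states differed by 0.91, with an unadjusted p of 0.03 and an adjusted p of 0.36.

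The fatty acid enzymes on the list did not pass the test in either state. Fasn, fatty acid synthase, changed by -0.47 in −dox cells (adjusted p = 0.26) and -0.62 in +dox cells (adjusted p = 0.13, or 0.018 with the replicate block). Scd1 and Scd2, which place the double bond in oleate and palmitoleate, changed by -0.12 and -0.35 in −dox cells and 0.28 and 0.55 in +dox cells. Scd2 spanned 11.53 to 13.47 on the −dox trametinib arrays against 13.34 to 13.41 on the +dox trametinib arrays.

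The comparison of +dox with −dox cells asks how reprogramming itself bears on the pathway. Of 31 members 0 passed under DMSO, where 2.87% of all genes were higher and 3.28% lower, and 5 members were lower and 0 higher at an unadjusted p under 0.05 in limma, against 1852 lower and 1820 higher of the 18193 genes at that threshold. The widest changes were those of Srebf1 at -0.85 (adjusted p = 0.12), Msmo1 at 0.65 (adjusted p = 0.27) and Abca1 at -0.65 (adjusted p = 0.18). Srebf1 read 10.22 to 11.28 on the −dox and 9.95 to 10.06 on the +dox DMSO arrays, so the groups did not overlap. Without −dox DMSO replicate 1, Srebf1 and Insig2 passed (-1.17, adjusted p = 0.024, and -0.59, adjusted p = 0.019).

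Under trametinib, 0 of 31 members passed between +dox and −dox cells, where 1.95% of all genes were higher and 1.42% lower, and 7 members were higher and 2 lower at an unadjusted p under 0.05, against 7.62% and 6.81% of all genes. In this comparison 17 of 18 sterol synthesis enzymes were above 0, with a median of 0.32, against 45.6% of all genes above 0. The 9 proliferation genes were all above 0 as well (median 0.95), 6 of them at an unadjusted p under 0.05, and Cenpa passed (1.45, adjusted p = 0.028). The median of all 31 members was 0.27, and became 0.08 without −dox trametinib replicate 1, 0.43 without replicate 2 of that group and 0.17 without +dox trametinib replicate 2. Insig1 was at 1.17 (adjusted p = 0.13), Fdps and Msmo1 at 1.04 (adjusted p = 0.22 and 0.11) and Lss at 0.94 (adjusted p = 0.17). With the replicate block Fdps and Msmo1 passed (adjusted p = 0.048 and 0.022), and without −dox DMSO replicate 1 Msmo1, Insig2 and Npc1 passed (adjusted p = 0.036, 0.022 and 0.031), although that array is not among those compared.

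The trametinib response itself was compared between the states, as the change in +dox cells minus that in −dox cells. Of 31 members 0 passed (0.258% of all genes were higher and 0.0715% lower), with 3 higher and 1 lower at an unadjusted p under 0.05 in limma (5.9% and 5.73% of all genes), namely Tm7sf2, Insig1, Abca1 and, lower, Npc1. The difference was above 0 for 25 of 31 members, with a median of 0.27, against 46.1% of all genes and a median of -0.02. With arrays centred on their medians these medians were 0.09 and -0.21. The median of the members was 0.06 without −dox trametinib replicate 1, 0.14 without +dox trametinib replicate 2 and 0.11 with the mean of probe sets, and all 9 proliferation genes were above 0 too, with a median of 0.81. The difference shares its arrays with each trametinib comparison and is therefore no separate evidence.

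Sterol synthesis enzymes moved together from array to array within the groups. Among the 18 sterol synthesis enzymes, −dox DMSO replicate 1 was the lowest of its group for 16, with a median of -0.53 against the other arrays of the group. On −dox trametinib replicate 1 they were lowest for 15 (median -0.58) and on replicate 2 highest for 17 (median 0.63). In +dox cells DMSO replicate 1 was highest for 14, trametinib replicate 1 lowest for 16 (median -0.51) and trametinib replicate 2 highest for 16 (median 0.42). Over all 18193 genes, −dox DMSO replicate 1 was the lowest of its group for 61.4%, and −dox trametinib replicate 1 for 35.9%. The enzymes are thus no independent replicates of one another.

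The order of the proliferation genes on these arrays was partly the same and partly another. All 9 were highest of the group on −dox trametinib replicate 1, where most enzymes were lowest, and on +dox trametinib replicate 2, where most enzymes were highest. On +dox trametinib replicate 3 all 9 were lowest, with a median of -1.14. On −dox DMSO replicate 1, 8 of 9 were lowest, as most enzymes were.

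**Figure D4:**
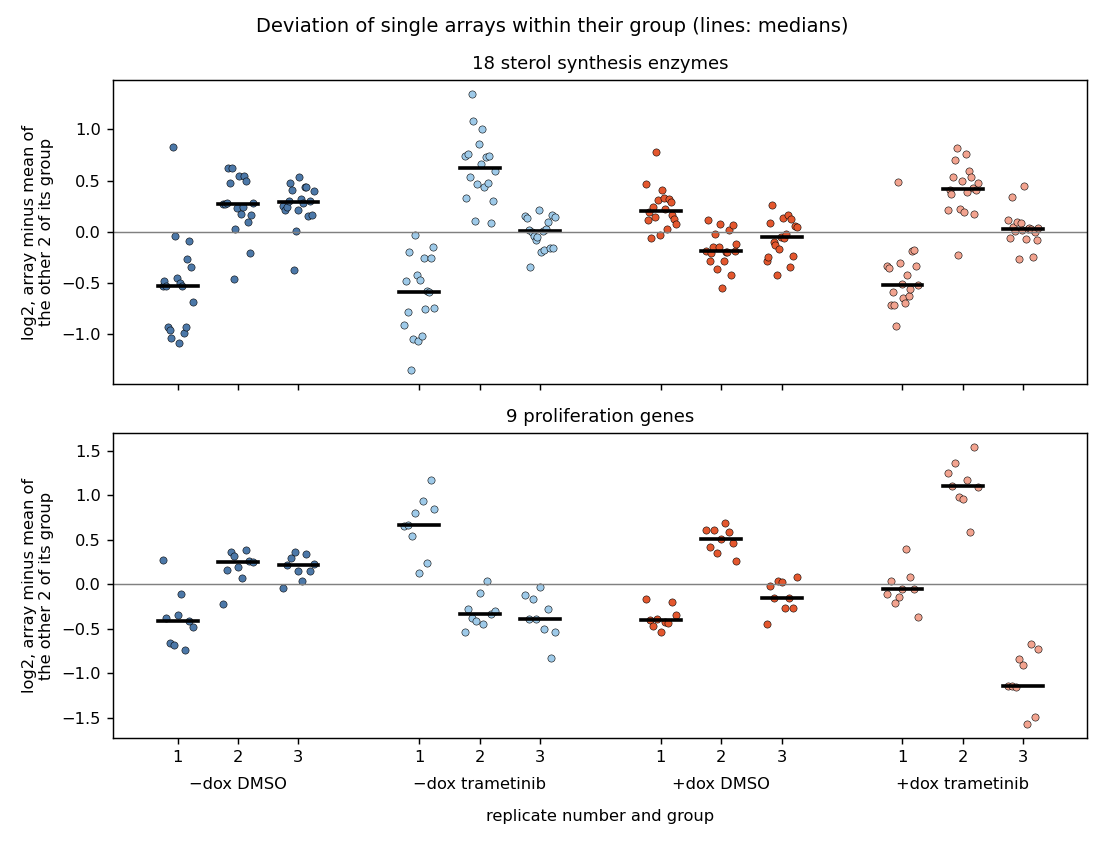
Each array against the mean of the other arrays of its group (log2), for the 18 sterol synthesis enzymes (top) and 9 proliferation genes (bottom), with the median as a line. The enzymes sit low together on replicate 1 of the −dox DMSO, −dox trametinib and +dox trametinib groups, with medians of -0.53, -0.58 and -0.51, whereas the proliferation genes are low on −dox DMSO replicate 1 (median -0.41) and high on −dox trametinib replicate 1 (median 0.67).

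Other genes of the pathway completed the picture. Of 43 measured, 7 fell and 8 rose with trametinib in −dox cells, and 9 fell and 7 rose in +dox cells, with medians of -0.01 and 0.02, beside shares of all genes of 10.8% lower and 11.6% higher in −dox and 12.5% and 13.8% in +dox cells. In synthesis, Lbr, which also reduces the C14 double bond, fell by 1.72 and by 1.47 (adjusted p = 2.8e-05 and 3e-05 from limma). Tm7sf2 rose in +dox cells, but in −dox cells its change of -0.25 did not pass. Acat1, the mitochondrial acetoacetyl-CoA thiolase, fell by 1.32 and by 1.13, and Cyb5r3, an electron donor to desaturases, rose by 0.47 in −dox cells. In SREBP control, Paqr3, a Golgi tether of SCAP, rose by 1.08 and by 1.01 (adjusted p = 0.0014 and 0.0015). Ubxn2a and Rnf145, which act in protein turnover, rose by 0.69 and by 0.43 in −dox cells. The SREBP protease gene Mbtps1 rose by 0.39 and its partner Mbtps2 fell by 0.40 in +dox cells.

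In sterol uptake and the lysosome, Npc2, which hands cholesterol to NPC1, rose by 0.42 and by 0.76 in −dox and +dox cells, and Stard3, a late endosome carrier, by 0.26 and by 0.75. Gramd1c, of a family of sterol carriers, was under the background level on all 3 −dox trametinib arrays, so that it fell by at least 0.95 in −dox cells, and it fell by 0.79 in +dox cells. Tmem97, a partner of NPC1, fell by 1.75 in +dox cells (adjusted p = 0.0034) with -1.05 in −dox cells (adjusted p = 0.055), and the lipoprotein receptor gene Scarb1 fell by 0.88 in +dox cells. Among efflux and oxysterol genes, Cyp46a1, a cholesterol hydroxylase, fell by 0.53 and by 0.44, and Lpcat3, which remodels phospholipids, rose by 0.92 in +dox cells.

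In fatty acid synthesis the widest change was that of Elovl6, which lengthens palmitate and fell by 3.49 in −dox cells and, with doxycycline, fell by 2.99 (adjusted p = 0.00026 and 0.00042 from limma). The desaturases Fads1 and Fads2 fell by 1.11 and by 0.68 in −dox cells, while in +dox cells both stood at 0.18. The differences between the responses, 1.29 and 0.86, did not pass (adjusted p = 0.24 for each). Elovl1, which lengthens very long chains, rose by 1.02 and by 0.73, the NADPH source Me1 rose by 0.61 and by 0.42, and Lpin1, a phosphatidate phosphatase, fell by 1.17 in +dox cells. With doxycycline under DMSO, Paqr3 (0.78) and Nceh1 (0.90, a cholesterol ester hydrolase) were higher and Mbtps1 (-0.46) and Stard3 (-0.75) lower, and under trametinib Gramd1c was higher by at least 0.39, again against the level under background. Nceh1 was named after its value was seen. No gene among the 43 passed for the difference between the responses, with 5 higher and 3 lower at an unadjusted p under 0.05 (5.9% and 5.73% of all genes).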

How the data were processed

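Expression was measured in C790 cells on 12 Affymetrix arrays, 3 for each of 4 groups taken from the sample labels. RMA normalisation was done by the authors in Chipster. The deposited values are log2 intensities per probe set, used as they are. They hold no detection calls, and the number of arrays limits the precision. Of 45101 probe sets, 34945 with 1 gene were kept. Those with several genes (932), with no gene named in the platform annotation and the 64 controls were left out. The brightest probe set represented each of 18193 genes. The background level is the 95th percentile of the means of 83 olfactory, vomeronasal and taste receptor probe sets.

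Tests used lmFit and eBayes of limma 3.58.1 (R 4.3.3) on group means over the 12 arrays. Arrays with the same replicate number deviated together for trametinib in +dox cells (r from 0.16 to 0.451), dox under DMSO (0.17 to 0.344) and dox under trametinib (0.212 to 0.286), but not in all pairs for trametinib in −dox cells (0.022 to 0.456). The pairing comes from the data, not from a label, and arrays of unlike number were not correlated for reference. For the first 3 comparisons a fit with that number as a block is given wherever it changes a call. The block for trametinib in −dox cells, which added Mvd and Msmo1, is given in the closing section.

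The members and lists were chosen with earlier results of these data known. Array values are given for members that passed in a trametinib comparison and for the SREBP regulators, and other pathway genes are named where they passed in one. Alternatives were the block, only the compared arrays, the mean of probe sets, genes above background, further quantile normalisation, median centring, array weights, trended and robust eBayes, other thresholds and leaving out each array. In simulated data with 200 genes changed by a log2 change of 1, the fit recovered 81% for trametinib in −dox cells with 9 false calls, and 57% for the difference between responses with 6. The simulated noise was drawn separately for each gene and array. Deviations shared by genes or by arrays, as seen in these data, were not part of it. Promoter windows come from RefSeq. Python 3.11.15 and matplotlib 3.10.9 drew the figures.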

Additional observations from a re-analysis of the deposited data

How the results depend on the processing

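Of 460 recomputed values of the called trametinib changes, 395 kept direction and call, 65 kept direction but lost the call and 0 changed sign. With the replicate block, only the compared arrays, genes above background, or trended and robust eBayes, the change itself stays the same by construction. The same holds where an array of the other cell state was left out. In these fits a sign could not change, and only the call could be lost. The calls that held under all alternative fits and without any one array were those of Pmvk, Lss, Insig1, Stard4 and Npc1 in −dox cells and Pmvk, Scap, Stard4 and Npc1 in +dox cells. For trametinib in −dox cells, 13 members passed, against 6 with only the compared arrays, 23 with array weights, 5 at an adjusted p under 0.01, 8 at a fold change over 2 and 6 to 14 when 1 array was left out. It was 14 without DMSO replicate 1, 7 without DMSO replicate 2 or 3 or trametinib replicate 1, and 6 without trametinib replicate 3. The shares of all genes moved too. With only the compared arrays 8.44% fell and 7.89% rose. Without DMSO replicates 1, 2 and 3 in turn, 12.48%, 8.58% and 7.94% fell and 10.3%, 10.05% and 9.21% rose. Without trametinib replicates 1 and 3 in turn, 9.16% and 7.57% fell and 9.80% and 8.27% rose. In +dox cells 10 passed, against 14 with only the compared arrays (13.2% of all genes lower and 15.0% higher) and 15 with array weights. It was 4 at an adjusted p under 0.01, 3 at a fold change over 2 and 6 to 14 when 1 array was left out. Without DMSO replicate 3 it was 6, with 9.42% of all genes lower and 10.88% higher. Without trametinib replicate 1 it was 6 as well, with 9.28% and 10.54%. At the stricter thresholds all genes were not counted, in either state. With only the compared arrays, Mvd, Idi1, Insig1, Insig2, Fasn and Scd2 passed in +dox cells (adjusted p = 0.013 to 0.034 from limma) and Acly and Abca1 did not. Array weights added Mvd, Sc5d, Insig1, Insig2 and Fasn there (adjusted p = 0.013 to 0.044). For dox under DMSO the count of 0 became 1 with the mean of probe sets (Msmo1), 6 with array weights, and 0 to 2 when 1 array was left out. Under trametinib the count of 0 became 2 with the replicate block, 1 with centred arrays (Insig2), 6 with array weights, and 0 to 3 when 1 array was left out. For dox under DMSO, 2.70% of all genes were lower and 2.74% higher with the mean of probe sets. The shares were 3.97% and 2.23% without −dox DMSO replicate 1. For dox under trametinib they were 2.14% and 2.79% with the block and 2.34% and 1.62% with centred arrays. Without −dox DMSO replicate 1 they were 2.16% and 3.14%. For the difference between responses 0 became 3 with array weights (Tm7sf2, Insig1 and Npc1). The shares of all genes called rose with array weights as well. For trametinib in −dox cells they were 20.0% lower and 19.2% higher, and for dox under DMSO 13.0% and 9.45%. For dox under trametinib they were 3.28% lower and 4.56% higher, and for the difference between responses 2.12% and 3.74%. The weights ran from 0.195 for −dox DMSO replicate 1 to 6.98 for −dox DMSO replicate 3. The cause of these shifts was not tested.

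The replicate block gave 15 members for trametinib in −dox cells, where the numbers were not taken to pair the arrays and Mvd and Msmo1 were added (adjusted p = 0.037 and 0.018), and 14 in +dox cells. It changed no call of a member beyond those named. Array intensities allow no statement on molecules, and Abcg1, under background, has no measured change.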
